A study of Mus musculus with 9 samples.

Results

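The axon guidance ligands and receptors were examined in 9 whole tumors grown from NB9464, a mouse neuroblastoma cell line with amplified MYCN. The members were the semaphorins of classes 3 to 7, plexins, ephrins, Eph receptors, Slits, Robo receptors and Unc5 receptors, together with Ntn1 and Dcc, all taken by gene symbol. Among 54429 symbols counted, 64 belonged to these families, and the 62 with a count above 0 in any tumor were kept. Epha6 and Robo2 were at 0 in all 9 tumors and were left out. Apart from that requirement of a count, the members were taken by name.

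All 9 hosts were wild-type C57BL/6 mice that received NB9464 cells under the skin, and treatment started at a tumor volume of 250 mm3. The 3 groups, of 3 tumors each, were Vehicle, R788 + anti-PDL1, and the same pair with radiation (Rad + R788 + anti-PDL1). The Syk kinase inhibitor R788 (fostamatinib) was dosed at 50 mg/kg and radiation at 10 Gy, and the anti-PDL1 antibody binds a ligand that restrains T cells. The series text lists 4 doses between day 28 and day 37 without naming the agents they cover. Host age and sex were not given in the labels. The tumors came from 1 cell line. The tissue label reads whole tumor, whereas the extraction text names macrophages cultured from bone marrow, and that conflict was not resolved. The labels give each tumor as a separate sample without saying more about its origin, so p-values measure the spread between these samples only.

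Axon guidance molecules steer growing nerve fibers, and most of them also act outside the nervous system in vessels, epithelia, immune cells and migrating neural crest cells, the lineage from which neuroblastoma arises. Secreted class 3 semaphorins usually signal through neuropilins paired with plexins, whereas membrane-bound semaphorins mostly bind plexins directly. Ephrins are ligands tethered to the cell surface that signal through Eph receptor tyrosine kinases on neighboring cells. Slits are secreted ligands of Robo receptors, and netrin-1 binds Dcc and the Unc5 receptors.

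Total counts were between 18276683 and 23397886 per tumor. The values called CPM are counts scaled to 1000000 per library with TMM normalization, and on that scale 3 counts, the most that a count of 0 allows, were 0.115 to 0.221 CPM; these limits cover counting error only. One library stood apart. Replicate 1 of the irradiated group (Rad + R788 + anti-PDL1) correlated with the other 8 libraries at r from 0.865 to 0.907 across genes, against 0.937 to 0.98 among those 8. It held 1.97% of its counts in mitochondrial genes, where the others held 3.48% to 5.71%. Its TMM factor was 0.743, against 0.975 to 1.12 in the others. It had counts for 18263 genes, against 19732 to 22129 in the others. It was kept, and the values without it are given after the comparisons. Of 10 markers of noradrenergic neuroblasts 3 had enough counts to be tested and 3 were at 0 in all 9 tumors. Th, which encodes the first enzyme of noradrenaline synthesis, was at 0 in all 9 tumors, Dbh, a later enzyme of that pathway, reached a single count in 1 tumor, and Hand2 made up nearly all of the summed marker level of 325 to 874 CPM. Isl1, a transcription factor on the same list, had 0 counts in every Vehicle tumor, 80, 48 and 63 with R788 + anti-PDL1 and 14, 27 and 21 in the irradiated tumors, and edgeR called the first of these differences (adjusted p = 0.0344). Gata3 had 4 to 206 counts in Vehicle tumors, 8 to 15 with R788 + anti-PDL1 and 80 to 149 in the irradiated tumors. Summed fibroblast markers, among them collagens, were between 2660 and 5490 CPM. In whole tumors, fewer cells of a type cannot be told apart from less RNA per cell.

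The sequences upstream of 3 members are shown because these members had the lowest p-values in the comparison of R788 + anti-PDL1 with Vehicle. They cover 200 bases, from 250 to 51 bases before the start of the gene in RefSeq (GRCm38.p6), 5′ to 3′ on the strand of the gene. Capitals mark the GC box GGGCGG on either strand. Sema3c, the other of the 4 lowest, was passed over because its window lies inside the longer GENCODE gene. Sema5a lies at chr15:32244563-32244762 on the plus strand, Sema3e at chr5:14025026-14025225 on the plus strand, and Plxnc1 at chr10:94944896-94945095 on the minus strand.
Sema5a: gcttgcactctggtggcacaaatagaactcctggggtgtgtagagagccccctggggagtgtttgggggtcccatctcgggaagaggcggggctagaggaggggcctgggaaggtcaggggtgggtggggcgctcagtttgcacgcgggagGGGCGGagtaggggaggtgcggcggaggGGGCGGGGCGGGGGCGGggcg
Sema3e: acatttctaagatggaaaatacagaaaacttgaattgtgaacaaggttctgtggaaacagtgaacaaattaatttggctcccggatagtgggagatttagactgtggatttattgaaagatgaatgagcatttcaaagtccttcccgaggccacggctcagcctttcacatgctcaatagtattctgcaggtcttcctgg
Plxnc1: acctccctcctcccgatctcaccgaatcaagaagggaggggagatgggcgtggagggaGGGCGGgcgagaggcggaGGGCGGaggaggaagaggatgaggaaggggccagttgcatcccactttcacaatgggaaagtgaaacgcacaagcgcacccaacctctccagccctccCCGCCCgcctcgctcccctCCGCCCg

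The windows of Sema5a and Plxnc1 held 4 GC box matches each, counted with overlaps, and were 70.5% and 66% G or C. The Sema3e window held none and was 41% G or C, against a median of 51.5% over 32851 promoters. A GC box was found in 24.6% of those promoters. Of the 52 members with a RefSeq entry, 34 had one in any of their promoters. This counts genes, some of which can have several promoters, so it cannot be set against the share of promoters. The E-box CACGTG, searched because MYCN binds it, was found in none of the 3 windows and in 4.34% of all promoters. Counted by gene in the same way, 2 members had one in any promoter. Such matches describe letters only.

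To compare genes with one another, CPM was divided by the exon length in kilobases of the GENCODE M21 annotation (GRCm38). The Vehicle tumors were dominated by a few members. Plxnb2, a plexin that binds class 4 semaphorins, had the highest level at 32.9 ± 4.53 CPM per kb (SD, n = 3), followed by Plxnd1, a plexin best known from blood vessels and a receptor of Sema3e, at 25.3 ± 1.31. The ephrin Efnb1 was at 20.7 ± 1.1 and the ligand Slit3 at 20.1 ± 2.25 CPM per kb. Ephb3, Plxna1, Efna1 and Sema4c came next, at 13 ± 1.53, 12.5 ± 2.74, 10.5 ± 4.02 and 8.87 ± 0.185 CPM per kb. These 8 members held 57.1% of the summed level of all members. Within this order the ranges of Efnb1 and Slit3 overlapped, as did those of Ephb3, Plxna1 and Efna1 and those of Efna1 and Sema4c. Efna1 was at 27.8 CPM in Vehicle replicate 1 and at 14.8 and 15.3 in the other 2, and its place above Sema4c rests on replicate 1. Mean CPM was at least 10 for 26 members and under 1 for 18.

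**Figure D1:**
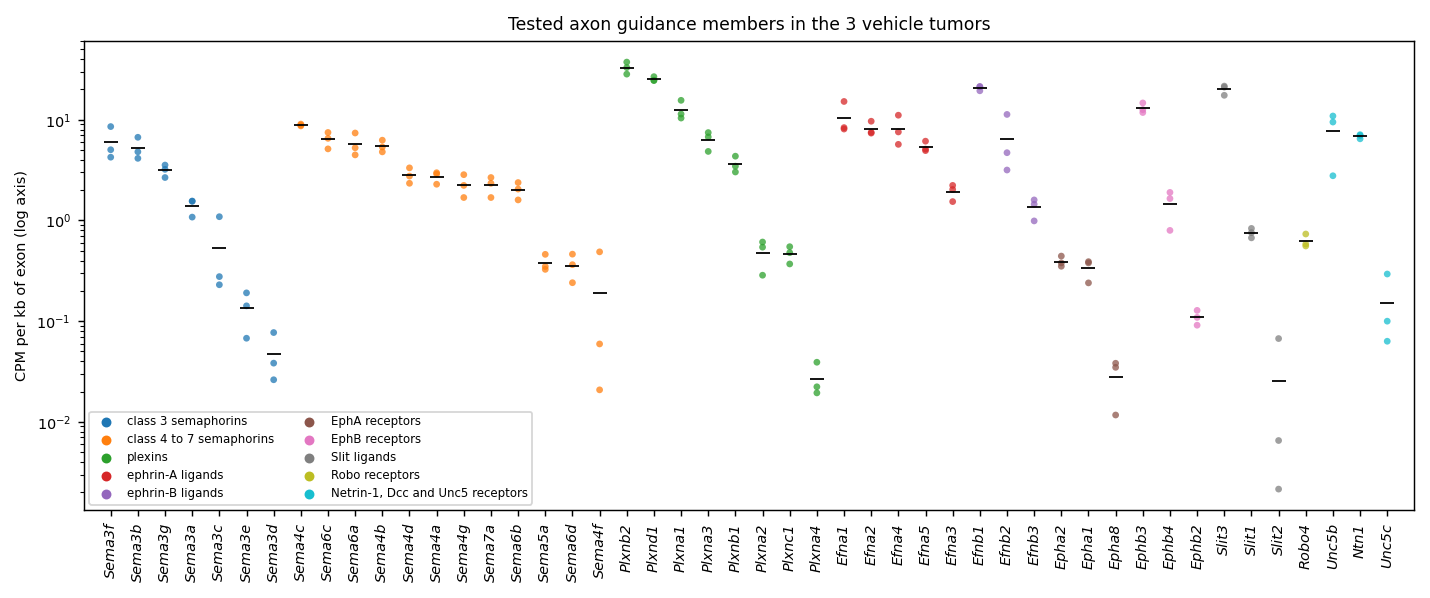
Level of the 48 tested members in the 3 Vehicle tumors, in CPM per kb of exon on a log axis, with each point a tumor, each dash a mean and the color giving the family. Plxnb2 is the highest at 32.9 CPM per kb, and Slit3 stands far above the other Slits while Robo4 at 0.625 is the only tested Robo receptor.

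Ligands and receptors of a family were present at unequal levels. Slit3 held 96.3% of the Slit level, but of its receptors only Robo4, an endothelial member of the family, was tested, at 0.625 ± 0.095 CPM per kb. Robo1 had 2 to 27 counts per tumor and Robo3 a single count in 1 tumor. Ephb3 held 89.1% of the EphB level of 14.6 CPM per kb. The ephrin-A ligands summed to 34.1 CPM per kb, whereas the EphA receptors summed to 0.791, led by Epha2 at 0.391 ± 0.0472. Netrin-1 (Ntn1) was at 6.85 ± 0.337 and Unc5b, a netrin receptor, at 7.72 ± 4.34 CPM per kb, while Dcc had 0 to 5 counts in every tumor. Sema3f, a secreted semaphorin that acts through neuropilin-2, had the highest mean of its class at 5.95 ± 2.29 CPM per kb. Its Vehicle tumors, at 8.56, 4.25 and 5.04, overlapped those of Sema3b, at 4.81, 4.14 and 6.7 CPM per kb.

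Of the 62 members 48 had enough counts to be tested and 14 did not. Epha7, Robo3 and Unc5d had 3 counts or fewer in every tumor. Sema5b, at 0 to 18 counts in 8 tumors, had 98 in R788 + anti-PDL1 replicate 2, and Epha4, at 0 to 11 elsewhere, had 35 there; both were named after their values were seen. The 5 members Epha3, Epha8, Sema3d, Unc5c and Plxnb3 were at 0 in a tumor and had at least 10 counts in 3 others, which gave them the widest ranges. Epha3, an EphA receptor, had 0, 2 and 0 counts in the Vehicle tumors, 24, 14 and 11 with R788 + anti-PDL1, and 4, 0 and 2 in the irradiated tumors, so the middle group lay above both others. Plxnb3 had 0 to 19 counts. Epha8 reached 0.959 CPM, Sema3d 2.45 CPM and Unc5c 5.63 CPM. All 62 members were protein coding with a single identifier. Another gene lies in the exons of 2 of them on the same strand (Plxnc1 with Gm48718, Sema4a with Mir7011) and of 12 on the other strand. Whether strand was used in the counting was not given in the sources used here, so these 14 counts are uncertain.

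The first comparison, of R788 + anti-PDL1 with Vehicle, concerned the drug pair without radiation. No member passed the test of edgeR's quasi-likelihood fit at a Benjamini-Hochberg adjusted p under 0.05, which 0.678% of 15931 genes passed. A raw p under 0.05 was obtained for 8 of the 48 tested members, all higher: Sema5a, Sema3e, Sema3c, Plxnc1, Sema3a, Sema6d, Epha1 and Epha2. Over all genes 5.96% had such a p and were higher, and 5.69% had one and were lower. All 3 treated tumors lay above all Vehicle tumors at 11 members and below them at 3, where 13.6% and 16.5% of all genes did so. The median log2 fold change was 0.21 over the members and -0.02 over all genes. DESeq2, the tool used by the study, called 5 members, all higher, where it called 4.86% of all genes: Sema5a, Sema3e, Sema3c, Plxnc1 and Sema3a.

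Sema5a, a transmembrane semaphorin with thrombospondin repeats and the lowest p among the members, lies on chromosome 15 from 32244810 to 32696341. It measured 8.61, 6.11 and 6.52 CPM in the Vehicle tumors, 38.2, 32.3 and 31.5 CPM with R788 + anti-PDL1, and 4.87, 16.6 and 17.7 CPM in the irradiated tumors. Every R788 + anti-PDL1 tumor was above every other tumor. The log2 fold change over Vehicle was 2.26 ± 0.43 (SE; edgeR adjusted p = 0.0581; DESeq2 adjusted p = 1.56e-05).

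The class 3 semaphorins Sema3d, Sema3a, Sema3e and Sema3c lie within 5.35 Mb of chromosome 5, from 12383385 to 17730268. Sema3e, which signals through Plxnd1 without a neuropilin, measured 1.77, 0.629 and 1.32 CPM in Vehicle tumors, 14.3, 3.90 and 6.76 with R788 + anti-PDL1 and 3.76, 9.18 and 6.26 in irradiated tumors. Both treated groups lay wholly above Vehicle. The log2 fold change with R788 + anti-PDL1 was 2.75 ± 0.61 (edgeR adjusted p = 0.0879; DESeq2 adjusted p = 0.000212). Sema3c measured 7.78, 1.98 and 1.64 CPM in Vehicle tumors, of which replicate 1 was the highest, 13.6, 21.2 and 15.7 with R788 + anti-PDL1, and 8.26, 8.12 and 6.90 in irradiated tumors. Its log2 fold change was 2.15 ± 0.55 (edgeR adjusted p = 0.131), and without Vehicle replicate 1 it was 3.24 and the gene was called (adjusted p = 0.0207). Sema3a, a classical repellent of growing axons, measured 15, 21.5 and 21.6 CPM in Vehicle tumors, 33.6, 53.1 and 43.4 with R788 + anti-PDL1, and 9.15, 22.3 and 19.4 in irradiated tumors. The R788 + anti-PDL1 tumors were the 3 highest, and its log2 fold change was 1.16 ± 0.34 (edgeR adjusted p = 0.189). Sema3d, the fourth gene of the interval, differed by 1.53 ± 0.99 (edgeR adjusted p = 0.627). That value rests on R788 + anti-PDL1 replicate 2, at 2.45 CPM against 0.617 and 0.451 in the other 2, and without this tumor it was 0.40 ± 1.04.

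**Figure D2:**
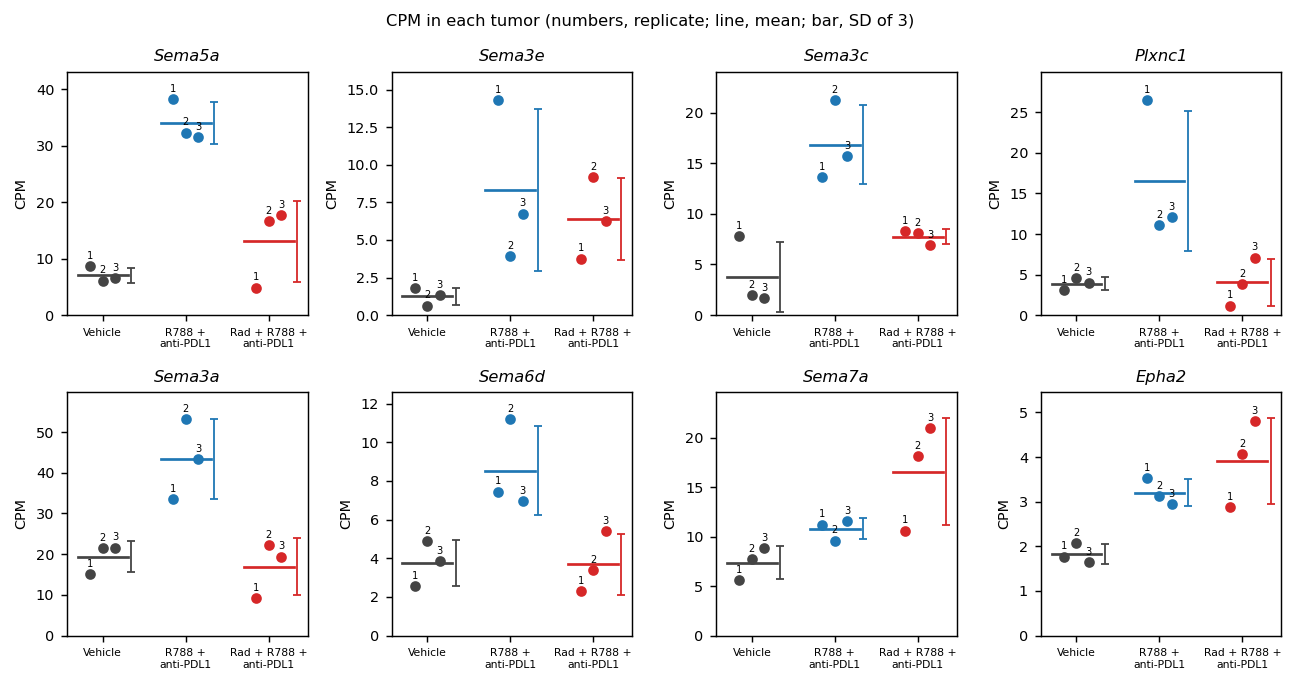
CPM of 8 members in each of the 9 tumors by group, with numbers giving the replicate, lines the mean and bars the SD (n = 3). Sema5a, Sema3c, Sema3a, Plxnc1 and Sema6d are highest in the 3 R788 + anti-PDL1 tumors, whereas the highest tumors for Sema7a and Epha2 are irradiated replicates 2 and 3.

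Among the receptors, Plxnc1, the plexin that binds Sema7a, measured 3.09, 4.58 and 4.00 CPM in Vehicle tumors, 26.5, 11.1 and 12.1 with R788 + anti-PDL1, and 1.18, 3.81 and 7.08 in irradiated tumors. The R788 + anti-PDL1 tumors were the 3 highest. Its log2 fold change was 2.09 ± 0.59 (edgeR adjusted p = 0.177; DESeq2 adjusted p = 0.00869), a count that Gm48718 may share. Sema6d, a transmembrane semaphorin that binds Plxna1, differed by 1.18 ± 0.42 (edgeR adjusted p = 0.288), with 6.97 to 11.2 CPM against 2.54 to 4.89 in Vehicle tumors. The receptors Plxnd1, Plxna1 and Plxnb2, far more abundant, differed by 0.05 ± 0.20, 0.40 ± 0.59 and -0.18 ± 0.44.

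Among the tested members, the ephrins, the Slits, Ntn1, Unc5b and Unc5c gave no raw p under 0.05. Slit3 was at 106, 128 and 131 CPM in Vehicle tumors and at 70.1, 99.7 and 78.2 with R788 + anti-PDL1. Its groups did not overlap, with a log2 fold change of -0.56 ± 0.25 (edgeR adjusted p = 0.44). Efna1 was at 27.8, 14.8 and 15.3 CPM in Vehicle tumors and 13.5, 12.9 and 13.4 with R788 + anti-PDL1 (-0.54 ± 0.30), again without overlap. Efnb1 differed by 0.63 ± 0.33, with 145 and 125 CPM in replicates 1 and 3 and 62.2 in replicate 2 against 67.1 to 73.8 in Vehicle tumors. Unc5b differed by -0.53 ± 0.43, and its Vehicle tumors ranged from 17.4 to 68.2 CPM. The receptors Epha2 and Epha1 were higher by 0.81 ± 0.35 and 1.94 ± 0.74 (edgeR adjusted p = 0.414 and 0.342). Epha1, whose exons overlap Zyx on the other strand, measured 1.85, 8.64 and 4.75 CPM with R788 + anti-PDL1 against 0.943 to 1.53 in Vehicle tumors, and without replicate 2 it was at 1.32 ± 0.77 with a raw p of 0.126 in edgeR.

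Replicate 2 of the R788 + anti-PDL1 group differed from its group in other ways. It was the highest of its 3 tumors for 27 of the 48 tested members. For 12 members it was more than 2-fold above the mean of the other 2, and neither count was made over all genes. Its summed endothelial markers (8 of 8 tested) were 125 CPM, against 47.3 and 70.8 in the other 2 and 39 to 49.8 in Vehicle tumors. Its fibroblast markers were 5490 CPM, against 2980 and 3480. Robo4 was at 8.22 and 7.91 CPM in replicates 2 and 3 and 2.95 in replicate 1, with 2.96 to 3.89 in Vehicle tumors (log2 fold change 0.94 ± 0.43; edgeR adjusted p = 0.441). Without this tumor 6 members had a raw p under 0.05 and were higher and 2 were lower, against 5.08% and 6.06% of all genes, and the median was -0.01 over the members and -0.03 over all genes. Sema5a and Sema3e were then at 2.30 ± 0.49 and 3.09 ± 0.58 (edgeR adjusted p = 0.102 and 0.073). Sema6d, Epha2 and Epha1 no longer had a raw p under 0.05, at 0.0695, 0.0643 and 0.126 in edgeR. Efnb1 was now among the higher members, at 0.92 ± 0.27. The 2 lower members were Ephb3 and Slit3, at -0.77 ± 0.24 and -0.72 ± 0.28. Summed macrophage markers (8 of 8 tested) were 420 to 456 CPM with R788 + anti-PDL1 and 197 to 392 in Vehicle tumors, without overlap. Singly, Csf1r and Mrc1 did not overlap, whereas Adgre1, Cd68, C1qa, C1qb, C1qc and Itgam did. Both were higher. Over all genes 30.1% did not overlap in this comparison, 13.6% being higher and 16.5% lower. The macrophage sums were 393, 237 and 1290 CPM in the irradiated tumors. Irradiated replicate 3 also had the highest summed T cell markers (3 of 6 tested), at 31.7 CPM against 1.7 to 23.8 elsewhere. Cd4 made up 17.4 CPM of the 31.7, and 22.9 CPM of the 23.8 in R788 + anti-PDL1 replicate 1. What part these cell types have in the values of the members was not tested.

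**Figure D3:**
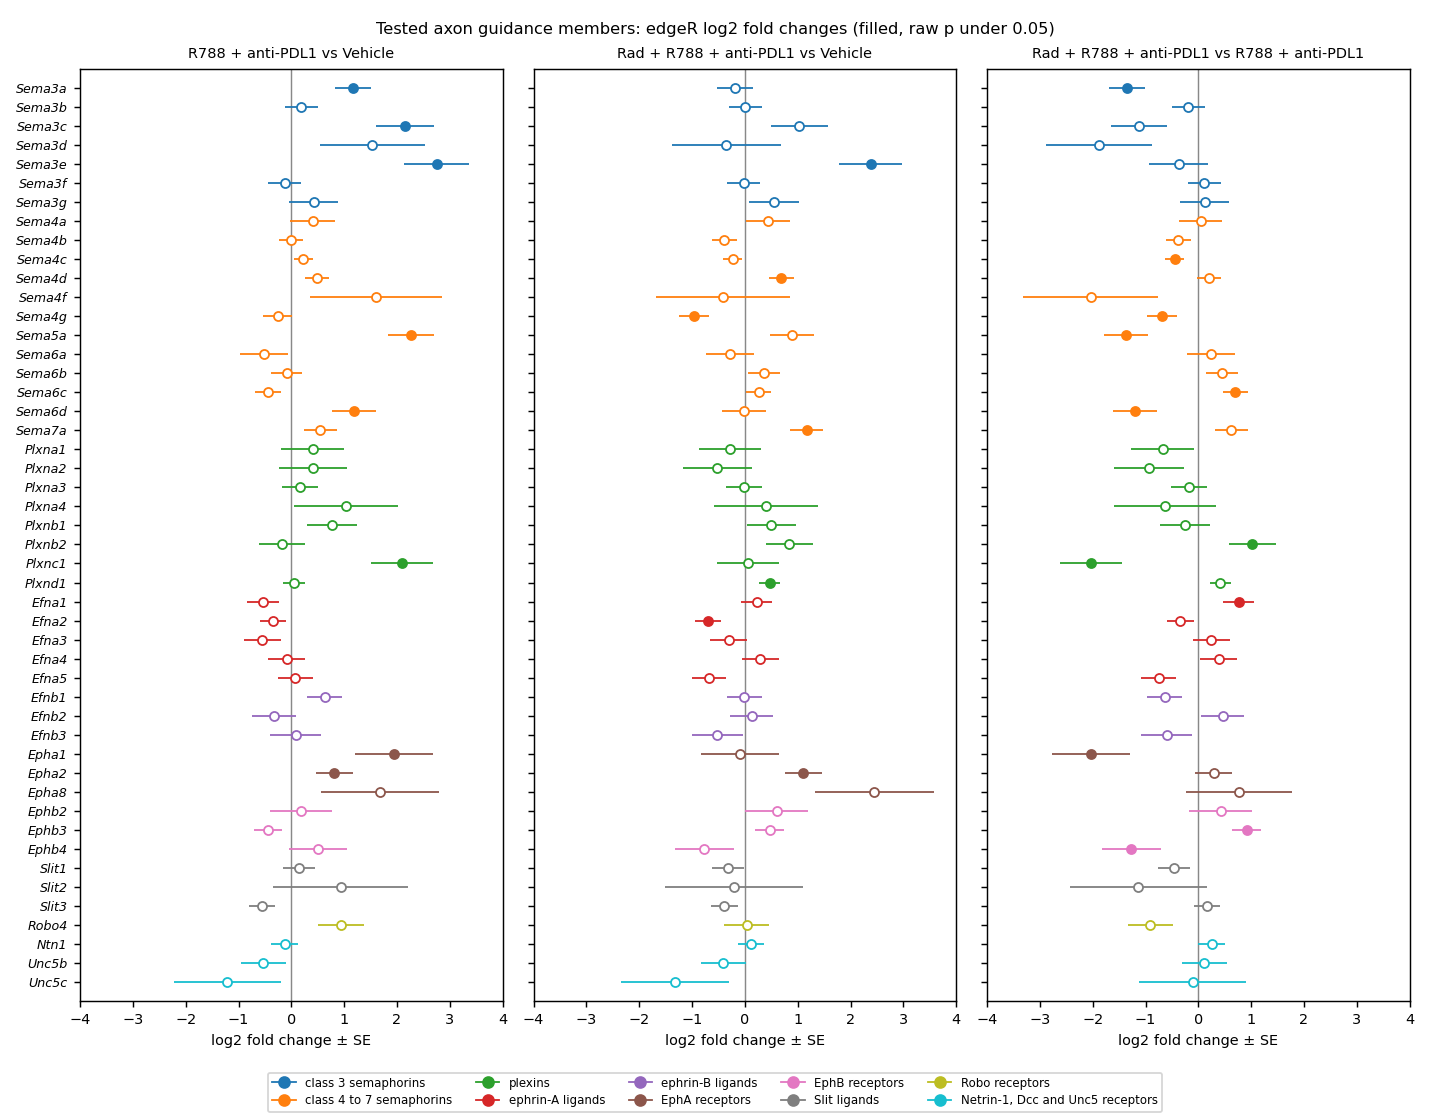
Log2 fold changes with SE of the 48 tested members in the 3 comparisons (edgeR, n = 3 per group), colored by family and filled where the raw p was under 0.05. The 8 filled points of the first comparison all lie to the right of 0, and in the third 8 of 12 lie to the left.

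The second comparison set Rad + R788 + anti-PDL1 against Vehicle and so concerned all 3 agents. It shares its Vehicle tumors with the first. No member passed the edgeR test, which 0.0439% of all genes passed. A raw p under 0.05 was obtained for 7 members, 5 higher (Sema3e, Sema7a, Epha2, Sema4d and Plxnd1) and 2 lower (Sema4g and Efna2), against 7.71% of all genes higher and 5.51% lower. The irradiated tumors all lay above the Vehicle tumors at 8 members and below them at 4, where 9.27% and 11.2% of all genes did so. The median log2 fold change was 0.00 over the members and 0.05 over all genes. DESeq2 called Sema3e, Sema7a and Epha2 as higher and Sema4g as lower, and 3.85% of all genes.

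Sema3e had the lowest p here, with a log2 fold change of 2.38 ± 0.60 (edgeR adjusted p = 0.213; DESeq2 adjusted p = 0.00394). Sema7a, a semaphorin held to the membrane by a lipid anchor and a ligand of Plxnc1 and integrins, measured 5.58, 7.72 and 8.82 CPM in Vehicle tumors, 11.2, 9.59 and 11.6 with R788 + anti-PDL1 and 10.6, 18.1 and 21.0 in irradiated tumors. Both treated groups lay above Vehicle. Its log2 fold change in irradiated tumors over Vehicle was 1.17 ± 0.31 (edgeR adjusted p = 0.221, DESeq2 adjusted p = 0.0091). Over R788 + anti-PDL1 it was 0.62 ± 0.31.

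Epha2, a receptor often found on epithelia, measured 1.77, 2.07 and 1.64 CPM in Vehicle tumors, 3.53, 3.13 and 2.95 with R788 + anti-PDL1 and 2.88, 4.06 and 4.80 in irradiated tumors. The Vehicle tumors were the 3 lowest, and the log2 fold change of irradiated tumors over Vehicle was 1.10 ± 0.35 (edgeR adjusted p = 0.28). Over R788 + anti-PDL1 it was 0.29 ± 0.35. Summed keratinocyte markers (2 of 5 tested) ran from 5.66 to 8.89 CPM in Vehicle tumors, 2.69 to 65.3 with R788 + anti-PDL1 and 47.3 to 75.5 in irradiated tumors, and their part in the Epha2 value was not tested. Nearly all of that sum was Krt5. Krt14 was at 0.221, 1.84 and 2.36 CPM in Vehicle tumors and at most 0.101 in the treated tumors, Dsp was between 0.295 and 2.06 CPM, and Krt10 and Krt1 did not pass 0.41 CPM. Sema4d, a ligand of Plxnb1 also made by immune cells, was at 18 to 25.6 CPM in Vehicle tumors and 44.2, 29.5 and 31.1 in irradiated tumors. Its log2 fold change was 0.69 ± 0.23 (edgeR adjusted p = 0.285), and the part of immune cells in it was not tested. Plxnd1 was at 179 to 196 CPM in Vehicle tumors and 204, 288 and 274 in irradiated tumors (0.47 ± 0.20; edgeR adjusted p = 0.372).

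Sema4g, a transmembrane semaphorin, measured 14.6, 24.7 and 19.3 CPM in Vehicle tumors and 7.74, 10.6 and 11.7 in irradiated tumors. The groups did not overlap, with a log2 fold change of -0.96 ± 0.28 (edgeR adjusted p = 0.265; DESeq2 adjusted p = 0.0485). Efna2, an ephrin-A ligand, was at 20.6, 16.0 and 15.7 CPM in Vehicle tumors and 10.8, 11 and 10.6 in irradiated tumors (-0.70 ± 0.25; edgeR adjusted p = 0.321), also without overlap.

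The third comparison set the irradiated tumors against those given the same drugs without radiation. The R788 + anti-PDL1 tumors are those of the first comparison. No member passed the edgeR test, which 0.00628% of all genes passed. A raw p under 0.05 was obtained for 12 members. Of these 4 were higher (Ephb3, Sema6c, Efna1 and Plxnb2) and 8 lower (Sema3a, Plxnc1, Sema5a, Sema6d, Epha1, Sema4c, Sema4g and Ephb4), against 11.7% of all genes higher and 6.65% lower. The irradiated tumors all lay above the R788 + anti-PDL1 tumors at 4 members and below them at 10, where 14.2% and 13.2% of all genes did so. The median log2 fold change was -0.23 over the members and 0.04 over all genes. When R788 + anti-PDL1 replicate 2 was left out, a raw p under 0.05 went with 3 members higher and 7 lower (9.48% and 6.81% of all genes). Sema6d, Epha1 and Ephb4 then no longer had one, at 0.0643, 0.104 and 0.356 in edgeR. The same held for Sema6c, Efna1 and Plxnb2, at 0.0571, 0.0749 and 0.0875. With all tumors, DESeq2 called 3 members, all lower, and 5.76% of all genes.

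The 3 that DESeq2 called were Sema3a, Plxnc1 and Sema5a, whose values in each tumor are given above. For each of them every irradiated tumor lay below every R788 + anti-PDL1 tumor. Sema3a differed by -1.35 ± 0.34 (edgeR adjusted p = 0.189; DESeq2 adjusted p = 0.00835), Plxnc1 by -2.03 ± 0.59 (0.222 and 0.0168) and Sema5a by -1.37 ± 0.42 (0.222 and 0.0327). Sema6d was at 2.29, 3.40 and 5.39 CPM in irradiated tumors, below the 6.97 to 11.2 of the R788 + anti-PDL1 tumors (-1.20 ± 0.42; edgeR adjusted p = 0.225). Sema3e differed by -0.37 ± 0.56 (edgeR adjusted p = 0.729), with overlapping groups.

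Ephb3, a receptor of ephrin-B ligands, measured 97.9, 78.3 and 83.4 CPM in Vehicle tumors, 44.3, 89.2 and 57.6 with R788 + anti-PDL1 and 148, 109 and 102 in irradiated tumors. The irradiated tumors were the 3 highest of all 9. The log2 fold change against R788 + anti-PDL1 was 0.91 ± 0.27 (edgeR adjusted p = 0.222). Sema6c, a transmembrane semaphorin, was at 31.0, 21.6 and 31.2 CPM with R788 + anti-PDL1 and 48.5, 51.8 and 36.1 in irradiated tumors, without overlap (0.70 ± 0.24; edgeR adjusted p = 0.223).

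Irradiated replicate 1 bore on many of these values. It was the lowest of its 3 tumors for 34 of the 48 tested members, a count that, like the next, was not made over all genes. For 17 members it was more than 2-fold below the mean of replicates 2 and 3, where the same count in the other 8 tumors ran from 1 to 11. Plxna1, the receptor of class 6 and, with neuropilin-1, of class 3 semaphorins, was at 17.8 CPM there and between 94.4 and 182 CPM in the other 8 tumors. Plxna2 was at 0.811 CPM there and between 4.91 and 12.2 CPM elsewhere. Plxnb2 went the other way, with 859 CPM against 219 to 289 CPM in the other 8, and was the single member more than 2-fold above the mean of replicates 2 and 3. Across the 48 members the log2 ratio of this tumor to the other 2 irradiated tumors had a Spearman rho of -0.47 with exon length, a description over genes of 1 library that are not independent replicates.

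**Figure D4:**
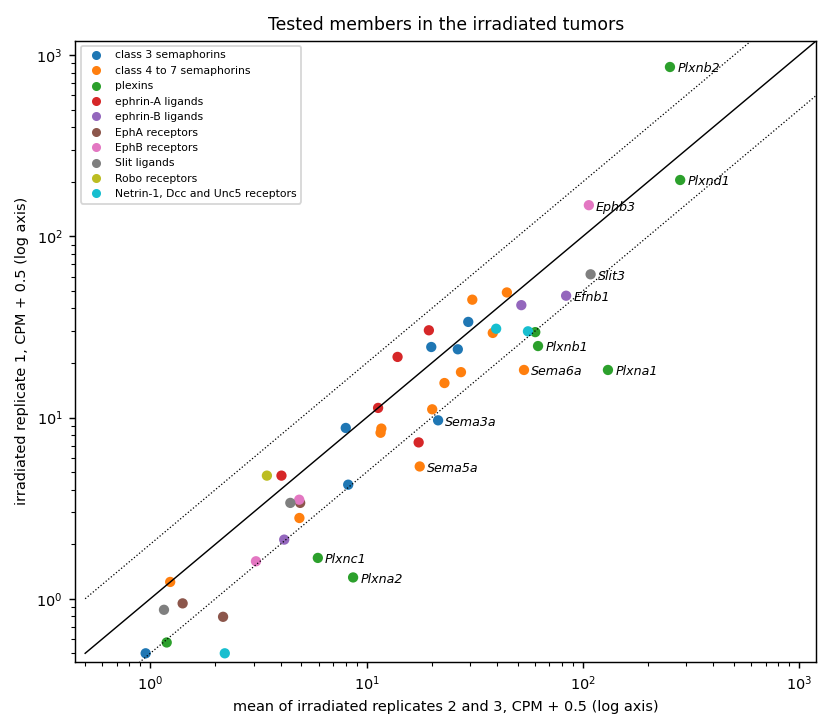
The 48 tested members in irradiated replicate 1 against the mean of irradiated replicates 2 and 3, both as CPM + 0.5 on log axes, with a solid line at equality and dotted lines at 2-fold. Plxnb2 at 859 CPM lies above the upper dotted line, and Plxna1, Plxna2, Plxnc1, Sema5a and Sema6a lie below the lower one.

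Without irradiated replicate 1 the log2 fold change of Sema5a over Vehicle went from 0.89 ± 0.42 (edgeR adjusted p = 0.386) to 1.31 ± 0.20 (edgeR adjusted p = 0.0381). Sema5a was then the 1 member called, where 0.343% of all genes were called. Sema7a and Plxnd1 were at 1.44 ± 0.24 and 0.63 ± 0.15 (edgeR adjusted p = 0.0546 and 0.122). Plxnb2 moved from 0.84 ± 0.44 to 0.02 ± 0.14 against Vehicle and from 1.02 ± 0.44 to 0.17 ± 0.14 against R788 + anti-PDL1, and Plxna1 moved from -0.28 ± 0.59 to 0.23 ± 0.25 against Vehicle. The median over the members was then 0.21 against Vehicle and -0.05 against R788 + anti-PDL1, with 0.02 and 0.03 over all genes. A raw p under 0.05 went with 7 members higher and 2 lower against Vehicle (9.45% and 6.91% of all genes), and with 6 higher and 8 lower against R788 + anti-PDL1 (9.13% and 6.93%). Of the 12 members of the third comparison, Efna1, Sema4g, Ephb4 and Plxnb2 no longer had one, at raw p-values of 0.0992, 0.0728, 0.112 and 0.251 in edgeR. Sema3a, Plxnc1 and Sema5a were still lower than with R788 + anti-PDL1, at log2 fold changes of -1.05 ± 0.24, -1.59 ± 0.46 and -0.98 ± 0.20 (edgeR adjusted p = 0.113, 0.172 and 0.0934).

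Other genes of these pathways, 52 co-receptors, further ligands and cytoplasmic effectors, gave 47 that could be tested, and edgeR called 0 of them in each of the 3 comparisons. DESeq2 called 9, 4 and 3 of them, where it called 4.86%, 3.85% and 5.76% of all genes. Without Vehicle replicate 1 edgeR called Ngef in both comparisons with Vehicle (adjusted p = 0.0262 and 0.0398), where it called 0.449% and 0.132% of all genes. With all libraries, edgeR gave a raw p under 0.05 to 8 higher and 3 lower in the first comparison, where 5.96% and 5.69% of all genes had one. These counts were 7 and 2 in the second comparison (7.71% and 5.51% of all genes) and 3 and 6 in the third (11.7% and 6.65%). Srgap3, a Slit-Robo GTPase activating protein, had the lowest p in the first comparison, at 2.48, 1.98 and 3.51 CPM in Vehicle tumors and 9.22, 13.8 and 10.5 with R788 + anti-PDL1. It differed by 2.07 ± 0.41 (edgeR adjusted p = 0.0676) against Vehicle, and the log2 fold change of the irradiated tumors against R788 + anti-PDL1 was -1.36 ± 0.40 (edgeR adjusted p = 0.222).

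Ngef (ephexin), an exchange factor bound by EphA receptors, was at 0.658 to 2.21 CPM in Vehicle tumors, 5.62 to 7.41 with R788 + anti-PDL1 and 5.02 to 6.95 in irradiated tumors. Both treated groups lay above Vehicle, by 2.5 ± 0.5 and 2.38 ± 0.49 (edgeR adjusted p = 0.0684 and 0.142). Flrt2, an adhesion molecule that binds Unc5 receptors, was higher with R788 + anti-PDL1 by 2.21 ± 0.47 (edgeR adjusted p = 0.0832). Mical2 belongs to a family of enzymes that act on actin downstream of plexins. Mical2 and the netrin gene Ntn5 were higher in irradiated than in Vehicle tumors by 1.16 ± 0.30 and 3.42 ± 0.89 (edgeR adjusted p = 0.215 and 0.219). Against R788 + anti-PDL1 the irradiated tumors differed by -0.01 ± 0.29 and 1.56 ± 0.81.

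Cntn2, an adhesion molecule of axons, was at 0, 0.0382 and 0.205 CPM with R788 + anti-PDL1, 2.07, 3.91 and 3.97 in irradiated tumors and 0.898 to 3.37 in Vehicle tumors. The R788 + anti-PDL1 tumors were the 3 lowest (edgeR adjusted p = 0.133 against irradiated tumors). Draxin, a secreted repellent that binds Dcc, was higher by 1.66 ± 0.42 in irradiated tumors than with R788 + anti-PDL1 (edgeR adjusted p = 0.189). The neuropilins Nrp1 and Nrp2, co-receptors of the class 3 semaphorins and named here for that role, were at 6.25 to 9.83 and 8.62 to 16.1 CPM in Vehicle tumors and 17.1 to 40.2 and 23.5 to 85.6 with R788 + anti-PDL1. Neither pair of groups overlapped, at log2 fold changes of 1.79 ± 0.48 and 2.35 ± 0.62 (edgeR adjusted p = 0.147 and 0.143).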

How the data were processed

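RNA-seq was made from 9 whole NB9464 tumors, 3 per group, with groups taken from the treatment label. In the study's methods, STAR alignment to mm10 was followed by Salmon quantification in bcbio; the submitters' processing notes list STAR 2.6.1d and Salmon 1.4.0. The values deposited by the authors are estimated counts per gene symbol from Salmon, already whole numbers and not normalized. The labels name paired-end polyA libraries and the paper a single-read run on another sequencer.

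All 9 libraries entered 1 fit in edgeR 4.0.16 (R 4.3.3; TMM, filterByExpr with minimum count 10, robust quasi-likelihood F test, two-sided), with Benjamini-Hochberg adjustment over 15931 genes and calls at an adjusted p under 0.05. Values are given per tumor, as mean ± SD (n = 3) or as log2 fold change ± SE. The SE of edgeR was derived from its test, as the absolute log2 fold change divided by the square root of the F statistic. Alternatives were DESeq2 1.42.0, voom with quality weights (limma 3.58.1), RLE factors, other filters, only the 6 libraries compared, a replicate block and leaving out each library. No exact permutation test of 3 against 3 can go below p = 0.1, so none was used.

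The members and lists were chosen with earlier results of these data known. Members were named by the 6 lowest raw p per comparison, the 8 highest Vehicle levels per kb, the leader of each family and the 5 widest ranges, and pathway genes by the 3 lowest raw p per comparison; other names follow from counts of calls or overlaps. Exon lengths, coordinates and overlaps came from GENCODE M21 (GRCm38) and promoters from RefSeq (GRCm38.p6). No batch is given in the labels. Some genes of the marker lists are not reported here.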

Additional observations from a re-analysis of the deposited data

How the results depend on the processing

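The number of members called depended on the tool. Against 0 with edgeR in each comparison, DESeq2 called 5, 4 and 3 members in the first, the second and the third comparison, and voom with quality weights called 15, 9 and 15, where it called 30.3%, 12.5% and 19.3% of all genes. In the first comparison 2 were called with no low-count filter (Sema3e and Sema5a; 0.712% of all genes) and 4 with only the 6 libraries compared (Plxnc1, Sema3a, Sema3e and Sema5a; 3.84%). The count stayed at 0 in all 3 comparisons with RLE factors, which called 0.665%, 0.0439% and 0.00628% of all genes. It also did so with at least 10 counts in every library, which called 0.641%, 0.0469% and 0.00782%. Leaving out each library gave 0 to 1 called in the first (Sema3c, without Vehicle replicate 1, where 0.449% of all genes were called). It gave 0 to 1 in the second (Sema5a, without irradiated replicate 1, with 0.343% of all genes) and 0 in the third. These fits called at most 0.449%, 0.343% and 0.126% of all genes in the 3 comparisons, and several called no gene at all. The median log2 level of the tested members had an SD between replicates of 0.213, a spread of levels and not of fold changes. When a library was left out, their median log2 fold change ranged from -0.01 (without R788 + anti-PDL1 replicate 2) to 0.37 in the first comparison. It ranged from -0.13 to 0.21 (without irradiated replicate 1) in the second. The range in the third was -0.34 to 0.10 (without R788 + anti-PDL1 replicate 2), and voom with quality weights gave 0.09 there. The share of tested members with a raw p under 0.05 ran over all alternatives from 13.5% to 39.6%, 9.62% to 35.4% and 14% to 56.2%, and that of all genes from 7.16% to 42.9%, 6.56% to 29.9% and 9% to 35%. The cause was not tested. All 350 alternative log2 fold changes of the members and pathway genes named by p kept their direction, and 61 of them were called. The alternatives reuse the libraries from which these genes were picked, so the kept direction is no independent support.

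With the replicate number as a block 0 members were called in each comparison (lowest edgeR adjusted p 0.0968, 0.266 and 0.208). That fit called 0%, 0.0188% and 0% of all genes. The deviations of same-numbered tumors correlated at -0.0463 to 0.233, not above 0.1 in every pair, and no label says what a number marks, so pairing was not assumed. Levels under 0.115 to 0.221 CPM cannot be told from 0 at this depth, which limits Epha7, Robo3 and Unc5d.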
